A study of Homo sapiens with 6 samples.

Results

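The genes described here are 9 human aldehyde dehydrogenase genes, ALDH1A1, ALDH1A3, ALDH1B1, ALDH2, ALDH3A2, ALDH3B1, ALDH6A1, ALDH7A1 and ALDH9A1, named by a list of symbols and found through their Ensembl identifiers among the 27134 genes of the expression table. All 9 were present. The values are RNA-seq gene counts of KM12, an established human colorectal cancer cell line, at passages 10 to 15. CDO1-overexpression cells (genotype/variation CDO1-overexpression, called CDO1 here) gave 3 libraries, and mock cells (genotype/variation control) gave 3. CDO1 encodes cysteine dioxygenase, the enzyme that oxidises cysteine to cysteine sulfinate. The sources used here do not give how CDO1 was introduced or whether the cells were clonal. Separate cultures for the libraries are not stated in the labels either, and the p-values therefore refer to a spread among libraries that may be technical.

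Aldehyde dehydrogenases oxidise aldehydes to carboxylic acids with NAD or NADP as electron acceptor, through a cysteine that forms a covalent bond with the aldehyde. ALDH1A1 and ALDH1A3 make retinoic acid from retinaldehyde, ALDH2 and ALDH1B1 clear acetaldehyde and lipid-derived aldehydes in mitochondria, and the others work on fatty aldehydes or within amino acid and carnitine pathways. In colorectal cancer the family is known for the aldehyde dehydrogenase activity assays, and the ALDH1A1 and ALDH1B1 stains, that are used to mark stem-like cells.

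The stretch of coding sequence around the catalytic cysteine is shown for 3 pairs of related members, because the members of a pair share a substrate class or compartment and the results are given pair by pair. A published cysteine active-site signature (PROSITE) was found once in the translated coding sequence of 8 of the 9 members and was not matched in ALDH7A1. Each line gives 36 bases, 5′ to 3′ on the coding strand (GENCODE release 29, GRCh38), with the codon of the catalytic cysteine in capitals.
ALDH1A3: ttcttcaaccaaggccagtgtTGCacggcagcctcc
ALDH1A1: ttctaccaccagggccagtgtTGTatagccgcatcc
ALDH2: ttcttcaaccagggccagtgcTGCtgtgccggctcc
ALDH1B1: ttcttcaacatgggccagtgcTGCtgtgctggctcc
ALDH3B1: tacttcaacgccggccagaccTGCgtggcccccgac
ALDH3A2: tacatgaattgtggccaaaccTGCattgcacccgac
ALDH2 and ALDH1B1 differed at 3 of the 36 bases, ALDH1A3 and ALDH1A1 at 8, and ALDH3B1 and ALDH3A2 at 10. The genes were nevertheless distinct over most of their length. The longest run of identical bases between the principal transcripts of ALDH1B1 and ALDH2 was 30 bases, with 71.6% identity of the coding sequences. For ALDH3B1 and its neighbour ALDH3B2, which is not among the 9, the run was 64 bases. Only the 19 family genes and the pseudogene ALDH7A1P1 were compared, and no other copies were searched. Among these sequences the longest run of any member was 155 bases, between ALDH7A1 and ALDH7A1P1. The level of ALDH7A1P1 was 2.72 normalised counts in CDO1 cells and 5.28 in mock cells, so few reads were assigned to that copy.

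Reads assigned to genes totalled 18544419 to 22198173 in CDO1 libraries and 17516640 to 22159756 in mock libraries. The values used are normalised counts, the read count of a gene divided by a size factor of its library. The CDO1 transcript was at 2484, 2336 and 2333 normalised counts in CDO1 libraries 1, 2 and 3, against 68.1, 0 and 0 in mock libraries 1, 2 and 3, which fits the labels apart from the reads in mock 1. Mock 1 also stood apart from the other mock libraries in the endothelium marker KDR, with 47.5 normalised counts against at most 0.975 in mock 2 and mock 3. The members are therefore also given without mock 1. It was not the most distant mock library in its counts as a whole. The chi-square per degree of freedom was 4.15 for mock 1 against mock 2 and 3.04 for mock 1 against mock 3. For mock 2 against mock 3 it was 8.29. All 9 colorectal epithelium markers were measured, and their summed level was 194259 to 208055 in CDO1 libraries and 144605 to 153135 in mock libraries, with 8 of them higher in CDO1 libraries by the test described below. Of other cell types, 3 of 7 fibroblast markers were listed, with sums of 139 to 155 normalised counts in CDO1 libraries and 204 to 312 in mock libraries. COL1A1 among them was lower in CDO1 libraries. The other 2 did not pass, with log2 fold changes, CDO1 minus mock, of 0.32 and 1.55. Of leukocyte markers 3 of 6 were listed, with sums of 6.43 to 14.2 normalised counts in CDO1 libraries and 6.83 to 17.9 in mock libraries. All 4 endothelium markers were listed, with sums of 51.3 to 77.7 normalised counts in CDO1 libraries and 27.3 to 82.4 in mock libraries. PECAM1 among them was higher in CDO1 libraries. The 4, KDR among them, had log2 fold changes of 0.37 to 1.78, so KDR was read in CDO1 libraries as well. No listed marker of these types was at 0 in all 6 libraries, and the part of such transcripts in the members' values was not tested.

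Of the 9 members, ALDH2 and ALDH1B1 were higher in CDO1 cells, ALDH1A3 and ALDH3B1 were lower, 4 did not pass the test and ALDH1A1 was too low to test. The test was limma across all 21775 genes with a mean of at least 1 normalised count, on log2 of the normalised count plus 1, with Benjamini-Hochberg adjustment over all of them at 0.05. The 4 members called, of 8 tested, stand against 24.0% of all genes tested, and by direction against 11.3% of genes called higher and 12.7% called lower. Those shares include genes of low count. With a mean of at least 10 normalised counts, which all 8 tested members exceed, 5360 of 14989 genes were called, 2612 higher and 2748 lower. The 3 libraries of each group did not overlap for 6 of the 8 tested members, against 37.1% of all genes tested. In 4 of the 6 the CDO1 libraries were above, as for 18.3% of all genes, and in 2 below, as for 18.9%. The median log2 fold change, CDO1 minus mock, was 0.12 over the 8 tested members and -0.0035 over all genes tested. The 37.1% also includes genes of low count, and its value without them was not computed. The members were chosen with earlier results of these data known. With 8 genes these counts describe the members and are not a test of the family.

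**Figure D1:**
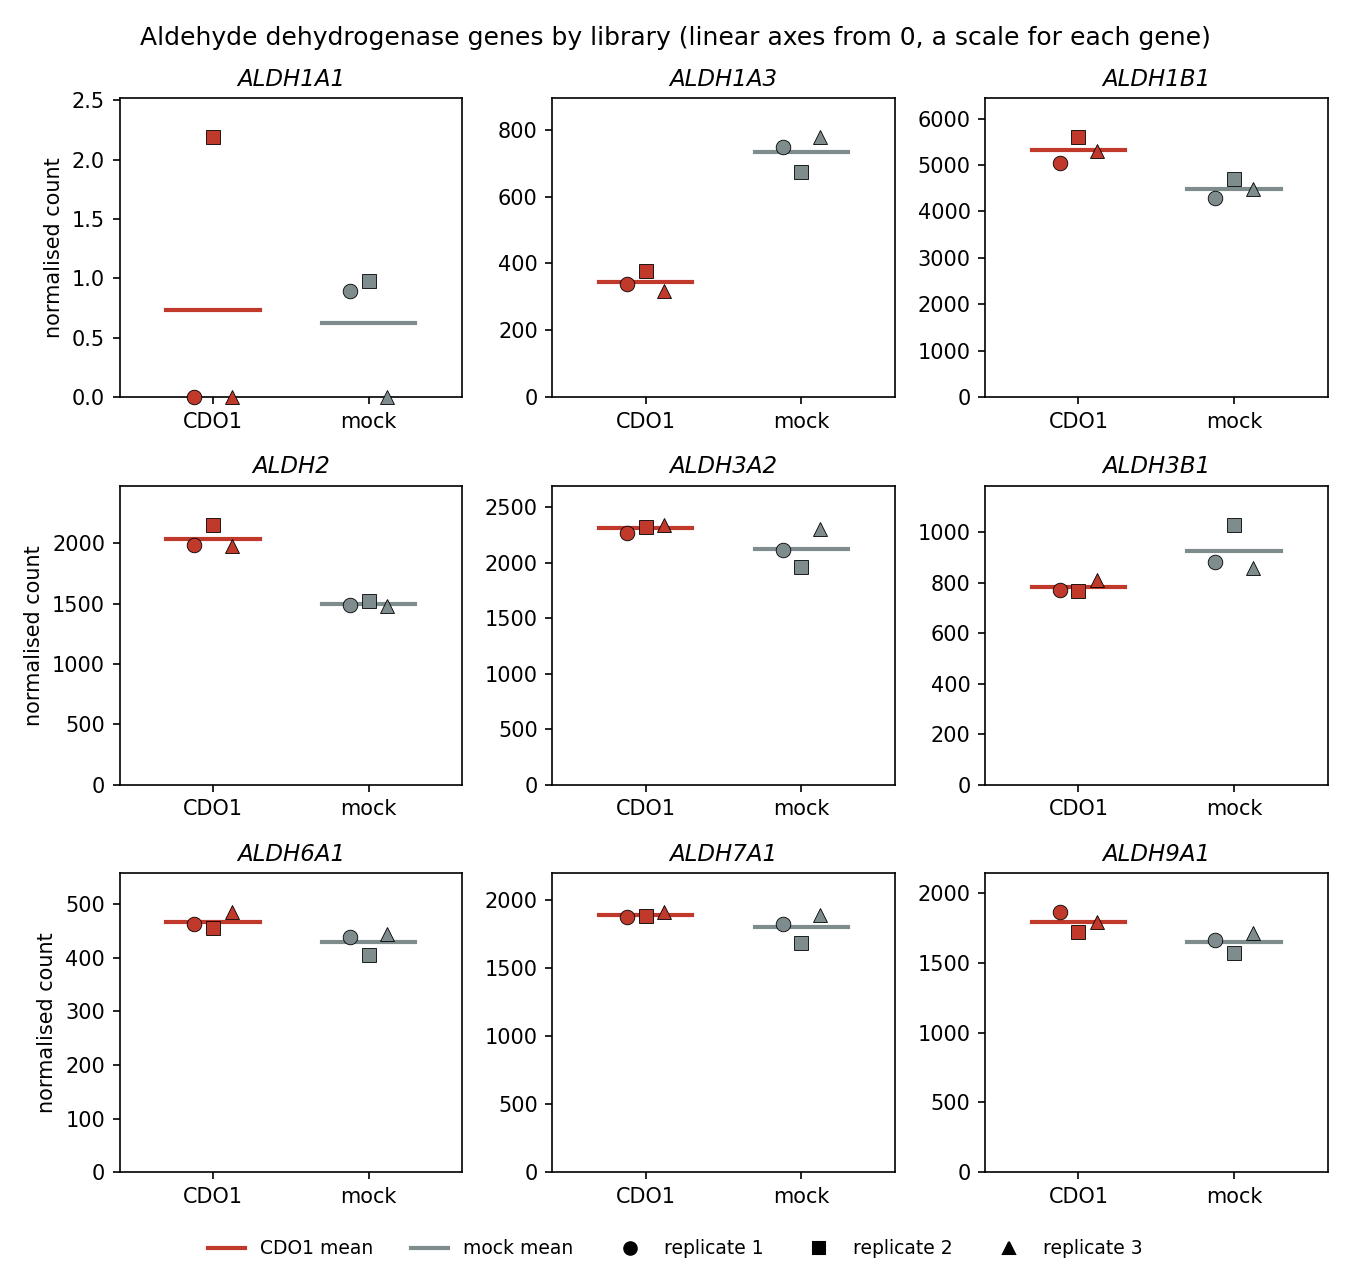
Normalised count (vertical axes, linear from 0, with a separate scale for each gene) of the 9 aldehyde dehydrogenase genes in each CDO1 library and each mock library; symbols give the replicate number and lines the group means. ALDH1A3 averaged 344 in CDO1 libraries and 734 in mock libraries, the largest fold difference among the 8 tested members, ALDH2 and ALDH1B1 stand higher in CDO1 libraries, and ALDH1A1 holds at most 2 reads in any library.

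ALDH1A3, the retinaldehyde dehydrogenase that makes retinoic acid in epithelia, had the largest change of the members. Its normalised count was 337, 377 and 319 in CDO1 libraries 1, 2 and 3, against 747, 675 and 778 in mock libraries 1, 2 and 3. Every CDO1 library lay below every mock library, with a gap between the groups wider than the spread within either. The group means were 344 ± 29.6 in CDO1 libraries and 734 ± 53.1 in mock libraries (SD, n = 3 each), 2.13-fold lower in CDO1 cells. The log2 fold change was -1.09 ± 0.08 (SE; 95% interval -1.26 to -0.92; limma adjusted p = 2.9e-09). A call with a log2 fold change of -1 or below was made for 4.52% of all genes tested, and one of 1 or above for 0.799%. Without mock 1 the log2 fold change of ALDH1A3 was -1.08 (limma adjusted p = 2.08e-08). In bulk libraries, fewer cells with a transcript and less of it per cell cannot be told apart.

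ALDH1A1, the other retinaldehyde dehydrogenase among the members and the one most used as a stem cell stain, was almost unread. It had 0, 2 and 0 reads in CDO1 libraries 1, 2 and 3, and 1, 1 and 0 reads in mock libraries 1, 2 and 3. Both groups are at or below the limit of 3 reads that a count of 0 allows, equal to 2.69 to 3.39 normalised counts depending on the library, so no fold is given and no difference was detectable at this depth. This limit covers counting error only. ALDH1A2, a further retinaldehyde dehydrogenase of the family, averaged 5.81 ± 3.00 normalised counts in CDO1 libraries and 3.08 ± 1.37 in mock libraries (SD, n = 3 each). It did not pass the test (limma adjusted p = 0.386).

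The sequences upstream of the RefSeq starts of ALDH1A1 and ALDH1A3 differ in base composition. RefSeq promoter entries (GRCh38.p14) were matched for 8 of the 9 members, and the 250 bases before each RefSeq start were examined. GENCODE release 29 has further starts, and both windows lie inside the gene bounds it gives. That of ALDH1A1, on the minus strand at chr9:72953054-72953303, is shown 5′ to 3′ because it belongs to the member with almost no reads. It has 6 CpG and 38.4% GC, and no GC box (GGGCGG on either strand, which would be in capitals).
ALDH1A1: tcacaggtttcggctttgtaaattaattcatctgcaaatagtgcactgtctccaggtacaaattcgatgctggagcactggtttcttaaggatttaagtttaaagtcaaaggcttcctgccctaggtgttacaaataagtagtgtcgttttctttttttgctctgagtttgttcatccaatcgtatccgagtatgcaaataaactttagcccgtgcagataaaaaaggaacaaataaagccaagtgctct
The same window of ALDH1A3, on the plus strand at chr15:100879581-100879830, has 38 CpG, 82.4% GC and 6 GC boxes, some of them overlapping. All 250 bases of it are in an exon of a longer ALDH1A3 transcript in GENCODE, against 3 of the bases in the ALDH1A1 window, so whether it lies before the start used in these cells was not tested. Medians over 35116 RefSeq promoters were 11 CpG and 58% GC, and 42.6% held a GC box. The retinoic acid response half-site AGGTCA, found on either strand in 12.1% of all promoters, and the antioxidant response element core TGACNNNGC, found in 10.9%, were in none of the members' windows. These matches describe letters in the windows and say nothing of binding.

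ALDH1A3 is overlapped on the opposite strand by the antisense gene ALDH1A3-AS1 (ENSG00000259583), and the sources do not say whether reads of the 2 strands were told apart. ALDH1A3-AS1 averaged 49.9 ± 7.90 normalised counts in CDO1 libraries and 50.1 ± 12.5 in mock libraries (SD, n = 3 each), with a log2 fold change of 0.01 (limma adjusted p = 0.986). Its libraries overlapped between groups, with 42.2 to 58.0 normalised counts in CDO1 libraries and 41.9 to 64.5 in mock libraries.

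ALDH2, the mitochondrial enzyme that oxidises acetaldehyde formed from ethanol, had the largest rise of the members. Its normalised count was 1984, 2153 and 1976 in CDO1 libraries 1, 2 and 3, against 1486, 1518 and 1483 in mock libraries 1, 2 and 3. All CDO1 libraries lay above all mock libraries, and the mock libraries were close to each other. The means were 2038 ± 100.4 in CDO1 libraries and 1496 ± 19.1 in mock libraries (SD, n = 3 each), 1.36-fold higher in CDO1 cells. The log2 fold change was 0.44 ± 0.06 (SE; 95% interval 0.33 to 0.56; limma adjusted p = 4.08e-06), and it was 0.44 without mock 1 (limma adjusted p = 6.51e-05).

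ALDH1B1, the mitochondrial relative of ALDH2 whose protein is also used as a stain in colon cancer, rose by less. Its normalised count was 5038, 5603 and 5311 in CDO1 libraries 1, 2 and 3, against 4281, 4693 and 4478 in mock libraries 1, 2 and 3. The groups did not overlap, and library 2 was the highest of its group in both. The means were 5317 ± 283 in CDO1 libraries and 4484 ± 206 in mock libraries (SD, n = 3 each), 1.19-fold higher in CDO1 cells. This gave a log2 fold change of 0.25 ± 0.05 (SE; 95% interval 0.13 to 0.36; limma adjusted p = 0.00196). Without mock 1 it was 0.21 (limma adjusted p = 0.029). ALDH1B1 and ALDH2 thus rose together, while the difference between their 2 fold changes was not tested.

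Of the fatty aldehyde enzymes, ALDH3B1 was called lower and ALDH3A2 did not pass, and the difference between the 2 genes was not tested. ALDH3B1, a membrane-bound enzyme of medium- and long-chain aldehydes, had 771, 769 and 813 normalised counts in CDO1 libraries 1, 2 and 3, against 883, 1031 and 860 in mock libraries 1, 2 and 3. The groups did not overlap, but CDO1 3 and mock 3 were close and mock 2 stood above the rest. The means were 784 ± 24.8 in CDO1 libraries and 924.5 ± 92.9 in mock libraries (SD, n = 3 each), 1.18-fold lower in CDO1 cells, with a log2 fold change of -0.23 ± 0.07 (SE; 95% interval -0.38 to -0.08; limma adjusted p = 0.021). The call ended without mock 2 (log2 fold change -0.15, limma adjusted p = 0.111), without CDO1 1 (0.0816) and without CDO1 2 (0.0691). It held without mock 1 (log2 fold change -0.26, limma adjusted p = 0.0332).

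ALDH3A2, the fatty aldehyde dehydrogenase of the endoplasmic reticulum that is lost in Sjögren-Larsson syndrome, had 2271, 2323 and 2345 normalised counts in CDO1 libraries 1, 2 and 3. In mock libraries 1, 2 and 3 it had 2115, 1961 and 2306. Mock 3 reached into the range of the CDO1 libraries. Its log2 fold change was 0.12 ± 0.06 (SE; 95% interval -0.00048 to 0.25; limma adjusted p = 0.148). It passed without mock 3, with a log2 fold change of 0.18 (limma adjusted p = 0.018).

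The 3 members with a place in a catabolic or biosynthetic pathway had log2 fold changes between 0.07 and 0.12, and none passed. ALDH6A1, the methylmalonate semialdehyde dehydrogenase of valine and thymine breakdown, had 462, 455 and 485 normalised counts in CDO1 libraries 1, 2 and 3, against 439, 406 and 443 in mock libraries 1, 2 and 3. Its groups did not overlap, yet the log2 fold change of 0.12 ± 0.07 (SE; 95% interval -0.03 to 0.28) did not pass (limma adjusted p = 0.265). The gene BBOF1 overlaps ALDH6A1 on the opposite strand and had 22.04 to 27.6 normalised counts in CDO1 libraries and 16.6 to 34.95 in mock libraries.

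ALDH7A1, the aminoadipate semialdehyde dehydrogenase of lysine breakdown that also oxidises betaine aldehyde, had 1873, 1884 and 1910 normalised counts in CDO1 libraries 1, 2 and 3, against 1826, 1687 and 1887 in mock libraries 1, 2 and 3. Mock 3 lay within the CDO1 range. On the log2 scale the difference was 0.07 ± 0.06 (SE; 95% interval -0.05 to 0.19; limma adjusted p = 0.415).

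ALDH9A1, the trimethylaminobutyraldehyde dehydrogenase of carnitine synthesis, had 1862, 1721 and 1796 normalised counts in CDO1 libraries 1, 2 and 3, against 1665, 1571 and 1711 in mock libraries 1, 2 and 3. The lowest CDO1 library was just above the highest mock library. The log2 fold change was 0.12 ± 0.06 (SE; 95% interval 0.0020 to 0.24), which did not pass once adjusted over all genes (limma adjusted p = 0.139). For these 3 genes and ALDH3A2 the upper ends of the intervals, 0.19 to 0.28 on the log2 scale, bound the size of a rise that these libraries leave possible.

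The authors' deposited table called 4 of the 9 members at an adjusted p under 0.05, the same 4. It called 15.9% of all 27134 genes, 7.64% higher and 8.30% lower. On the recovered reads, edgeR with TMM normalisation called the same 4 members and 35.7% of its 15184 genes, 17.3% higher and 18.4% lower. DESeq2 also called them, with 27.4% of its 15555 genes called, 13.1% higher and 14.3% lower. These shares are of unlike sets of genes and do not rank the tests by strictness. The authors' deposited table gives log2 fold changes of -1.04 for ALDH1A3 (adjusted p = 1.12e-24), 0.44 for ALDH2 (adjusted p = 1.26e-10), 0.24 for ALDH1B1 (adjusted p = 0.00022) and -0.23 for ALDH3B1 (adjusted p = 0.0276). For the CDO1 transcript itself the authors' deposited table gives a log2 fold change of 0.089 (adjusted p = 0.416). It therefore did not call the overexpressed gene. The other 17 alternative settings, DESeq2 on the recovered reads among them, called CDO1 higher, with log2 fold changes of 6.56 to 11.2. The reason for the unlike values was not tested.

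**Figure D2:**
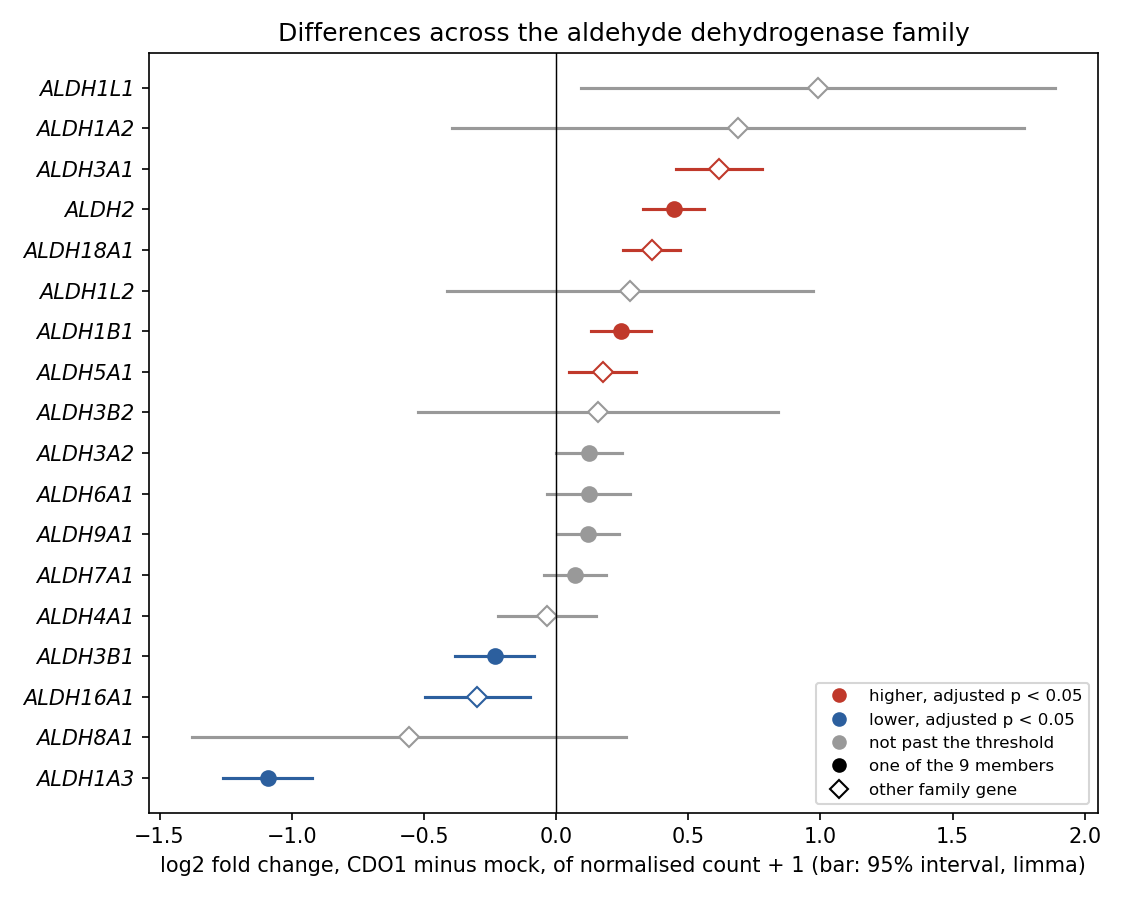
Log2 fold change, CDO1 minus mock, of normalised count plus 1 (horizontal axis) for the 8 tested members (filled circles) and the 10 other aldehyde dehydrogenase genes (open diamonds), with 95% intervals from limma; red marks genes called higher, blue genes called lower and grey genes that did not pass. ALDH1A3, at -1.09, has the lowest estimate, although the wide interval of the low-count gene ALDH8A1 covers its interval, and ALDH3A1, at 0.61, is the highest of the called genes.

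Levels of different genes were compared per kilobase of exon, on the union of annotated exons. ALDH1B1 was the most abundant member, with 1685 ± 89.6 normalised counts per kilobase in CDO1 libraries and 1421 ± 65.3 in mock libraries (SD, n = 3 each). ALDH9A1 followed with 542 ± 21.3 in CDO1 libraries and 498 ± 21.5 in mock libraries, then ALDH3A2 with 358 ± 5.88 in CDO1 libraries and 329 ± 26.7 in mock libraries, and ALDH2 with 209.6 ± 10.3 in CDO1 libraries and 154 ± 1.97 in mock libraries. In CDO1 cells the order went on with ALDH3B1 (118), ALDH7A1 (105), ALDH6A1 (70.0), ALDH1A3 (59.6) and ALDH1A1 (0.256), and no 2 neighbours in that order overlapped over the 3 libraries. In mock cells it went on with ALDH3B1 (139.5), ALDH1A3 (127), ALDH7A1 (100.2), ALDH6A1 (64.3) and ALDH1A1 (0.219). There ALDH2 and ALDH3B1 overlapped, as did ALDH3B1 and ALDH1A3, so their order is not settled.

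ALDH1A3 thus stood eighth in CDO1 cells and sixth in mock cells. ALDH1B1 made up 53.5 ± 1.41% of the summed level per kilobase of the 9 genes in CDO1 libraries and 50.1 ± 1.79% in mock libraries (SD, n = 3 each). That share depends on the length used: it was 35.2% in CDO1 libraries and 32.5% in mock libraries with the coding length, and 43.0% in CDO1 libraries and 39.2% in mock libraries with the principal transcript's length. The share of ALDH1A3 was 1.89 ± 0.13% in CDO1 libraries and 4.48 ± 0.33% in mock libraries. The sum itself was 3149 ± 84.5 normalised counts per kilobase in CDO1 libraries, with a range of 3064 to 3233, and 2834 ± 57.0 in mock libraries, with a range of 2771 to 2882. All CDO1 libraries were therefore above all mock libraries in the sum, to which ALDH1B1 contributes most. With the coding length or the principal transcript's length in place of the exon union, ALDH1B1 was still first and ALDH1A1 last in both groups, while the order between them depended on the length used. ALDH1A3 ranked lower in CDO1 cells than in mock cells with each of the 3 lengths.

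**Figure D3:**
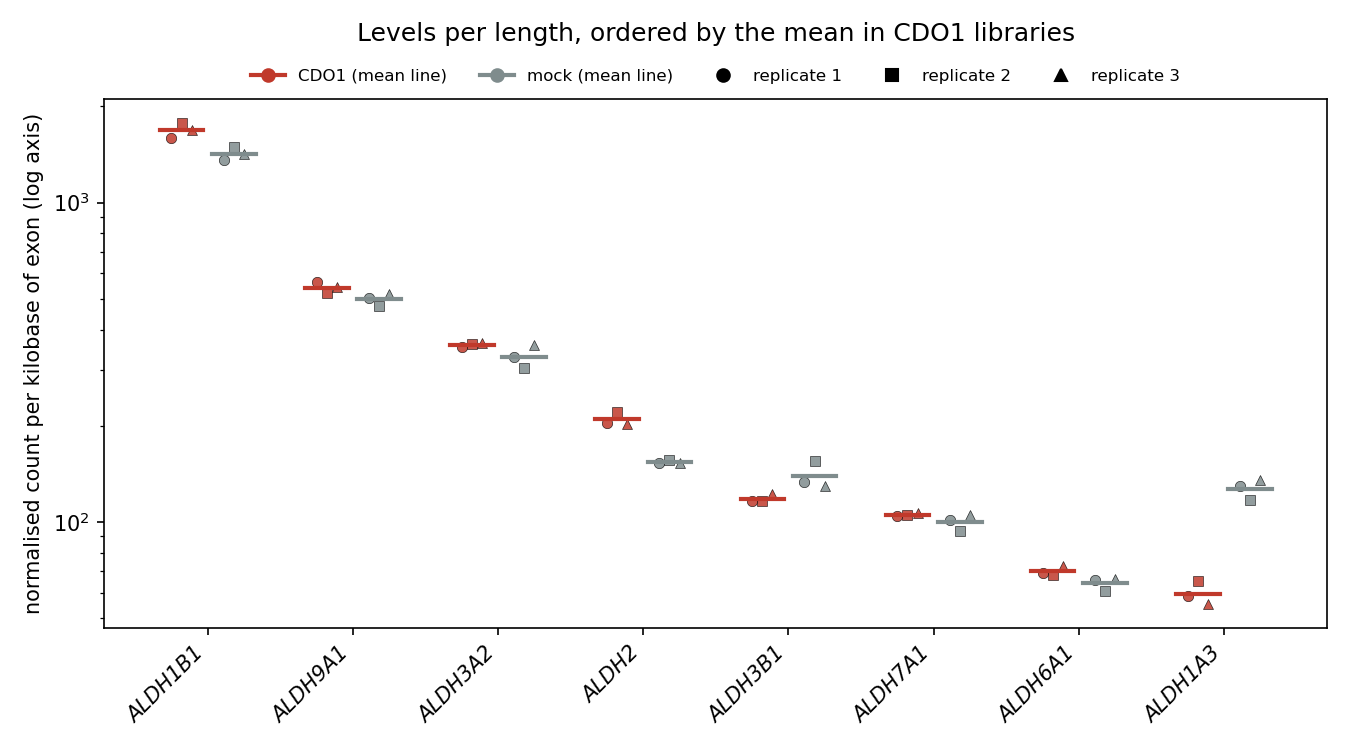
Normalised count per kilobase of exon (logarithmic axis) of the 8 members with more than 2 reads in any library, with CDO1 libraries and mock libraries side by side for each gene, symbols for replicates and lines for group means. ALDH1B1 lies between 1597 and 1776 in CDO1 libraries and between 1357 and 1488 in mock libraries, and ALDH1A3 lies between 55.2 and 65.2 in CDO1 libraries and between 117 and 135 in mock libraries.

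Of the 10 other human aldehyde dehydrogenase genes on the list, 3 were called higher, 1 lower and 6 did not pass. Over all genes tested the shares were 11.3% higher and 12.7% lower. The median log2 fold change of the 10 was 0.23. It includes genes of low count that did not pass: ALDH1L1 (0.99), ALDH1A2 (0.69), ALDH1L2 (0.28), ALDH3B2 (0.16) and ALDH8A1 (-0.56). ALDH3A1, a cytosolic enzyme of aromatic and medium-chain aldehydes best known from the cornea, rose most among the called genes: it averaged 589 ± 26.6 normalised counts in CDO1 libraries and 385 ± 29.6 in mock libraries (SD, n = 3 each), 1.53-fold higher (log2 fold change 0.61 ± 0.08 SE, limma adjusted p = 4.8e-06). ALDH18A1, which makes pyrroline-5-carboxylate for proline, was 1.29-fold higher, with 4634 ± 189 in CDO1 libraries and 3604 ± 109 in mock libraries (limma adjusted p = 1.96e-05). ALDH5A1, the succinate semialdehyde dehydrogenase of GABA breakdown, rose slightly, with 964 ± 29.9 in CDO1 libraries and 853 ± 8.92 in mock libraries (log2 fold change 0.18, limma adjusted p = 0.0386). That call was lost without any one of the 6 libraries. With all libraries kept, it was also absent in DESeq2 (adjusted p = 0.0698) and in the authors' deposited table (adjusted p = 0.0671). In all, 10 alternative settings lost it and 8 kept it.

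ALDH16A1, a long family member that lacks the catalytic cysteine in mammals, fell, with 974 ± 78.6 normalised counts in CDO1 libraries and 1208 ± 213 in mock libraries (SD, n = 3 each; log2 fold change -0.30, limma adjusted p = 0.0257), although its libraries overlapped. Its call ended without CDO1 1, CDO1 3, mock 1 or mock 2, with limma adjusted p between 0.0878 and 0.131. The signature was not matched in ALDH16A1 or ALDH18A1. ALDH4A1, the dehydrogenase of proline breakdown, averaged 319 ± 25.9 in CDO1 libraries and 326 ± 21.8 in mock libraries (log2 fold change -0.03, limma adjusted p = 0.835). ALDH1L1, ALDH1L2, ALDH3B2, ALDH8A1 and ALDH1A2 averaged 5.81 to 15.7 normalised counts in CDO1 libraries and 3.08 to 13.9 in mock libraries, and none passed.

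The pathways on either side of the members were described with 6 further gene lists, read against the 11.3% of all genes called higher and 12.7% called lower. Among genes with a mean of at least 10 normalised counts, 2612 of 14989 were called higher and 2748 lower. The lists, like the members, were chosen with earlier results of these data known. Of 20 tested genes that bind, convert or sense retinoids, 6 fell, 14 did not pass and none rose, with a median log2 fold change of -0.11. CRABP2, which carries retinoic acid to its nuclear receptors, had 1572 ± 78.6 normalised counts in CDO1 libraries and 3100.2 ± 58.3 in mock libraries (SD, n = 3 each; log2 fold change -0.98, limma adjusted p = 6.07e-11). Also lower were DHRS3, which reduces retinaldehyde back to retinol (log2 fold change -0.71), LRAT, which esterifies retinol (-1.16), CYP26B1, which degrades retinoic acid (-0.48), and the receptor RARA (-0.40). RDH10 and RDH11, named as retinol dehydrogenases, did not pass (log2 fold changes -0.10 and 0.14).

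Of 24 genes of branched-chain amino acid catabolism, the pathway of ALDH6A1, 14 rose, 10 did not pass and none fell, with a median log2 fold change of 0.22. PPM1K, the phosphatase that activates the branched-chain ketoacid dehydrogenase, averaged 604 ± 46.2 normalised counts in CDO1 libraries and 384 ± 22.1 in mock libraries (SD, n = 3 each), 1.57-fold higher (limma adjusted p = 2.64e-06). BCKDHB, a subunit of that complex, was 1.42-fold higher, with 623 ± 8.21 in CDO1 libraries and 440.03 ± 13.9 in mock libraries (limma adjusted p = 1.37e-05). PCCA, a subunit of propionyl-CoA carboxylase, had a log2 fold change of 0.40, and the hydratase ECHS1 one of 0.25. BCAT1, the cytosolic transaminase, was low and 3.06-fold higher, with 32.2 ± 5.32 in CDO1 libraries and 10.5 ± 4.79 in mock libraries (limma adjusted p = 0.001). Of the neighbours of ALDH6A1 in valine breakdown, HIBADH, which makes its substrate, rose (log2 fold change 0.27, limma adjusted p = 0.00421). HIBCH, a step earlier, did not pass (0.06, limma adjusted p = 0.622), and the difference between them was not tested.

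Of 9 tested genes of lysine breakdown and betaine metabolism, the pathways of ALDH7A1, 4 fell, 5 did not pass and none rose. The median log2 fold change was -0.37. It includes PIPOX (-0.70) and DMGDH (-0.74), which did not pass and averaged only 3.13 and 14.7 normalised counts over the 6 libraries. DHTKD1 (-0.12) and GCDH (0.13), with higher counts, did not pass either. SARDH, the sarcosine dehydrogenase downstream of betaine, averaged 50.9 ± 5.88 normalised counts in CDO1 libraries and 129 ± 19.99 in mock libraries (SD, n = 3 each; log2 fold change -1.32, limma adjusted p = 2.17e-06). CRYM, a ketimine reductase of the pipecolate branch, had 23.2 ± 5.82 in CDO1 libraries and 57.4 ± 1.49 in mock libraries (log2 fold change -1.30, limma adjusted p = 0.000183). AADAT, the aminoadipate aminotransferase, had a log2 fold change of -0.37 (limma adjusted p = 0.00553), and CHDH, which makes betaine aldehyde from choline, one of -0.21 (limma adjusted p = 0.0278). The CHDH call ended without CDO1 1, CDO1 2, mock 1 or mock 2, with limma adjusted p between 0.0592 and 0.118. AASS, the enzyme that opens the saccharopine route to the substrate of ALDH7A1, did not pass (log2 fold change 0.18, limma adjusted p = 0.324).

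Of 10 tested genes of carnitine synthesis and the carnitine shuttle, the setting of ALDH9A1, 3 rose, 2 fell and 5 did not pass, with a median log2 fold change of 0.0099. CPT1A, the acyltransferase that commits fatty acids to mitochondria, fell, with 951 ± 31.9 normalised counts in CDO1 libraries and 1365 ± 45.4 in mock libraries (SD, n = 3 each; log2 fold change -0.52, limma adjusted p = 1.14e-06). Its partner CPT2 on the inner membrane rose, with 383 ± 29.1 in CDO1 libraries and 300.2 ± 4.13 in mock libraries (log2 fold change 0.35, limma adjusted p = 0.00396). TMLHE, the first enzyme of carnitine synthesis, did not pass (log2 fold change 0.24, limma adjusted p = 0.101).

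Of 14 tested genes that make or use fatty aldehydes and sphingosine phosphate, the substrates' sources for ALDH3A2 and ALDH3B1, 4 rose, 3 fell and 7 did not pass, with a median log2 fold change of -0.0088. FAR2 and FAR1, reductases that make fatty alcohols, rose: FAR2 averaged 358 ± 11.6 normalised counts in CDO1 libraries and 206 ± 10.5 in mock libraries (SD, n = 3 each; 1.74-fold, limma adjusted p = 7.61e-07). SGPL1, the lyase that releases the fatty aldehyde hexadecenal from sphingosine phosphate, fell, with 4844 ± 169 in CDO1 libraries and 6069 ± 179 in mock libraries (log2 fold change -0.33, limma adjusted p = 5.2e-05). CYP4F11, an omega-hydroxylase, had a log2 fold change of -0.91 (limma adjusted p = 7.67e-05).

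Of 10 tested alcohol dehydrogenases and carbonyl reductases, 1 rose, 1 fell and 8 did not pass, with a median log2 fold change of -0.12. The carbonyl reductase CBR1 was 1.71-fold higher, with 385 ± 30.9 normalised counts in CDO1 libraries and 225 ± 27.6 in mock libraries (SD, n = 3 each; limma adjusted p = 4.88e-06). ADH5, the glutathione-dependent formaldehyde dehydrogenase, had 2469 ± 52.3 in CDO1 libraries and 2786 ± 87.2 in mock libraries (log2 fold change -0.17, limma adjusted p = 0.0172), a call that ended without CDO1 2, CDO1 3 or mock 1. Each of these lists is a description, and none was tested as a set.

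**Figure D4:**
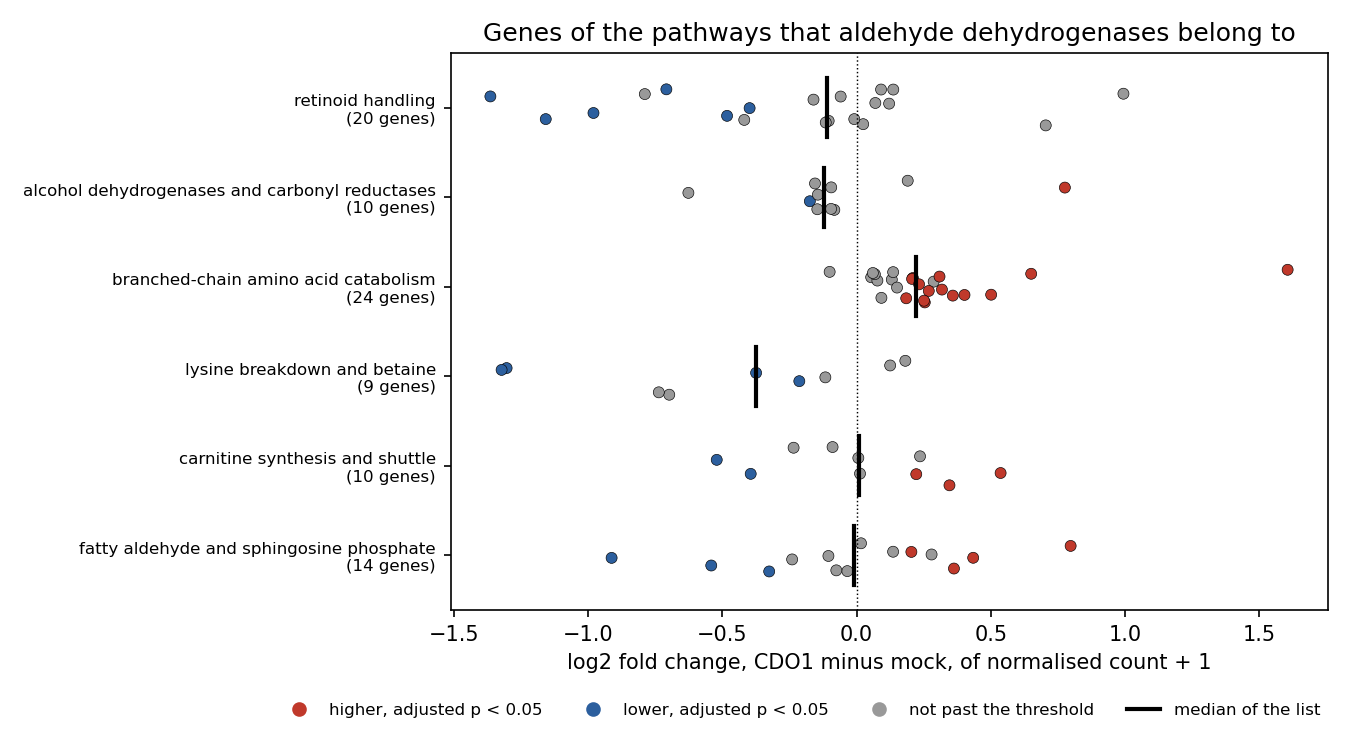
Log2 fold change, CDO1 minus mock, of normalised count plus 1 (horizontal axis) for each tested gene of the 6 pathway lists; points are genes, red called higher, blue called lower and grey not passed by limma, and black bars are list medians. The called genes lie on the lower side for retinoid handling (6 of 20) and for lysine breakdown and betaine (4 of 9), on the higher side for branched-chain amino acid catabolism (14 of 24), and on both sides for the other lists.

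Profiles over the 6 libraries were compared for the members with the largest and the second largest change, as the root mean square difference of centred log2 values, over 10941 genes with a mean of at least 100 normalised counts. The nearest to ALDH1A3 were ARHGEF10 (difference 0.049, log2 fold change -1.15), ESRP1 (0.069, log2 fold change -1.06) and ABCC2 (0.077, log2 fold change -1.11). ARHGEF10 averaged 308 normalised counts in CDO1 libraries and 685 in mock libraries, and ESRP1, an epithelial splicing regulator, 687 in CDO1 libraries and 1431 in mock libraries. The nearest to ALDH2 were EPB41L1, TARS2 and SPTAN1, with differences of 0.029 to 0.030 and log2 fold changes of 0.43 to 0.44. The measure uses the group difference itself and describes likeness only.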

How the data were processed

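Total RNA of KM12 cells was made into libraries with an Illumina kit, per the labels' protocols. Per the submitters' processing notes, STAR 2.5.1b, DESeq2 1.10.1 and the build GRCh38 were used. The counter, its strand setting and the annotation are not stated. The deposited signal columns hold gene counts divided by a size factor per library. Scaled by the value of a single read, 100% of values were whole within 0.001. The log2 fold change, p-value and adjusted p-value columns are the authors' own comparison, per the file headers. An adjusted p of 1 there may stand for a missing value.

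From these values limma 3.58.1 (trend, R 4.3.3) compared 3 CDO1 with 3 mock libraries on log2(value + 1) keeping genes whose mean reached 1, adjusted at 0.05. Low genes have their change understated on this scale, and fold values are ratios of means. edgeR 4.0.16 and DESeq2 1.42.0 were run on the recovered reads.

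Gene names came from a reference table holding 26577 of the identifiers, and coordinates and sequences from GENCODE 29 (GRCh38) and RefSeq promoters. The members and lists were chosen with earlier results of these data known. Named genes were all members, the other family genes, up to 4 genes of each list with the smallest p, further list genes with their values, and the 3 nearest profiles to each of 2 members. The values of 1 list gene are not reported here, although the list counts include it. Limits from counts cover counting error only, because without molecular identifiers reads are not independent molecules.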

Additional observations from a re-analysis of the deposited data

How the results depend on the processing

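The alternatives were a mean of at least 10, no filter, pseudocounts of 0.5 and 5, protein-coding genes only, equal library totals, removal of the trend with GC content, edgeR with 2 normalisations, DESeq2, the authors' deposited adjusted p, the replicate number as a block, and each library left out. In all 12 settings that kept the 6 libraries, 2 members were called higher and 2 lower. Leaving out a library gave 3 to 5 member calls, 2 to 3 higher and 1 to 2 lower, the changes being ALDH3B1 and ALDH3A2 as reported. ALDH1A3 ranged from -1.16 to -1.04 in log2 fold change, ALDH1B1 from 0.21 to 0.28 and ALDH2 from 0.40 to 0.47 over the left-out libraries, all called. Calls over all genes numbered 5229 and ranged from 4002 to 5492 with a library left out, 1749 to 2607 higher and 2162 to 2885 lower. Equal library totals made 40.2% of calls higher, against 47.2%. With the replicate number as a block, 5918 genes were called and the member calls stayed at 4. Same-numbered libraries had correlations of 0.0777, 0.0862 and 0.299, and differently numbered ones ranged from -0.238 to 0.189. These values do not settle whether the numbers pair the libraries. No label says that they do, and the main test therefore left the block out. Of the lists, calls in branched-chain amino acid catabolism ranged from 10 to 14 higher, retinoid handling from 6 to 7 lower and lysine breakdown from 3 to 4 lower over the left-out libraries. Carnitine genes called higher fell to 1 without CDO1 1, without CDO1 3 and in DESeq2, and those called lower fell to 1 in 6 settings. Alcohol dehydrogenase and carbonyl reductase genes called lower became 2 without mock 2 and 3 with the GC trend removed. Retinoid genes called higher became 1 without mock 2, without mock 3 and with the GC trend removed. The 2 other length definitions for levels per kilobase were added after seeing the data. Low counts limit ALDH1A1, ALDH1A2, ALDH1L1, ALDH1L2, ALDH3B2 and ALDH8A1.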
